A study of Mus musculus with 6 samples.

Results

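The genes described here are 9 genes used as markers of germinal centre B cells, read in sorted splenic marginal zone B cells: Bcl6, Nuggc, Fas, Mybl1, S1pr2, Basp1, Neil1, Gcsam and Rgs13. They were chosen by symbol, and all 9 were found among the 14864 genes of the deposited table. RNA came from marginal zone B cells that were flow-sorted from the spleens of C57BL/6 mice aged 8 weeks, and was measured by RNA sequencing. Per the labels, there were 3 libraries of wild-type (WT) animals and 3 of animals with CK2α conditionally knocked out (cKO), CK2α being a catalytic subunit of the protein kinase CK2. What drives the deletion, which exons it removes and how the sort was gated is not given in the labels. They also do not say whether each library came from its own mouse, so p-values measure only how far these libraries spread, and part of that may be technical.

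Germinal centres are the sites in lymphoid follicles where B cells divide, mutate their antibody genes and are selected for affinity. BCL6 is the transcriptional repressor that the germinal centre state depends on, and it holds back genes of plasma cell differentiation, of the DNA damage response and of exit from the follicle. S1PR2, coupled to Gα13, keeps B cells within the germinal centre, RGS13 damps their response to chemokines, and FAS renders them sensitive to death signals. Marginal zone B cells are a separate, non-germinal subset at the edge of the white pulp that responds early to blood-borne antigen.

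Values are normalised reads: the authors' read counts divided by 1 factor per library, so that a value of 1 is close to 1 read. Library depth was 18778776 to 23503756 recovered reads. The sorted cells carried high levels of the marginal zone markers: Cr2, a complement receptor, had 65812 ± 2121 normalised reads in WT against 69586 ± 8713 in cKO (mean ± SD, n = 3), and 6 of 10 marginal zone markers rose, beside 5.08% of all genes tested. The level of Csnk2a1, the gene targeted, did not separate the labelled groups (3957 ± 105 in WT, 4045 ± 87.6 in cKO, limma adjusted p = 0.734), and a level over the whole gene cannot show a deleted exon. Directions below are those of the libraries as labelled.

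The 9 genes were unevenly expressed in these cells. Per kilobase of annotated exon, Neil1 gave the highest WT level (485 ± 49.3 normalised reads per kilobase) and Bcl6 the next (121 ± 34.7), and the ranges of these genes did not overlap. Basp1 (59.8 ± 6.54), Fas (40.9 ± 10.8), Rgs13 (36.8 ± 9.86), Nuggc (30.3 ± 10.8) and Mybl1 (25.4 ± 7.33) followed, with overlapping WT ranges between neighbours among these 5. The Mybl1 range did not reach that of S1pr2. S1pr2 (12.1 ± 3.30) and Gcsam (9.16 ± 2.56) were the lowest, and their ranges overlapped too. Exon lengths came from a later annotation than the build named for these data, so the order is approximate.

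Bcl6, Nuggc and Fas fell in the cKO libraries, and none of the 9 rose. Of all 14855 genes tested, 4.97% fell and 5.08% rose. The median log2 difference of the 9 genes was -0.78, against -0.001 over all genes tested. Fewer cells of one kind and less RNA per cell cannot be told apart in these bulk samples.

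Bcl6 (ENSMUSG00000022508) stood at 1056, 593 and 785 normalised reads in the WT libraries (replicates 1, 2 and 3 in that order, as throughout), and at 325, 562 and 355 in the cKO libraries. The groups did not overlap, but WT replicate 2 and cKO replicate 2 lay close together. On average Bcl6 went from 812 ± 233 to 414 ± 129, a log2 difference of -0.97 ± 0.22 (SE), with a 95% interval of -1.45 to -0.49 and a limma adjusted p of 0.0214.

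RefSeq lists a pair of start sites for Bcl6, and the 250 bases before each are shown because BCL6 is known to bind and repress its own gene and because STAT factors are known to act there. Capitals mark the letters TTCNNNGAA, a palindrome found in the sites of both STAT factors and BCL6. The windows are in build GRCm38.p6, minus strand, at chr16:23988853-23989102 for the upstream start and chr16:23981284-23981533 for the downstream start. The Fas window, at chr19:34290409-34290658 on the plus strand, is shown with them since Fas was called too and its window held a match.
Bcl6, upstream start: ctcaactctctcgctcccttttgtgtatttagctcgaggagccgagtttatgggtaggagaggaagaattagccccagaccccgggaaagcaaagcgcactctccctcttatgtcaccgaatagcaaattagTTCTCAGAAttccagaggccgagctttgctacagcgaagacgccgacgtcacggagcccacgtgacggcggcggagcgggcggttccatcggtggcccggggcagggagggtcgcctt
Bcl6, downstream start: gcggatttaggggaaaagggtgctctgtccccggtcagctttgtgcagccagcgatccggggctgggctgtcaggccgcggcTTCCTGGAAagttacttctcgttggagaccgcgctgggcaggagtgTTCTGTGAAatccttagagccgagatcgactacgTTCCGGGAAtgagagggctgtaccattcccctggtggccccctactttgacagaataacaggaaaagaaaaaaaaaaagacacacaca
Fas: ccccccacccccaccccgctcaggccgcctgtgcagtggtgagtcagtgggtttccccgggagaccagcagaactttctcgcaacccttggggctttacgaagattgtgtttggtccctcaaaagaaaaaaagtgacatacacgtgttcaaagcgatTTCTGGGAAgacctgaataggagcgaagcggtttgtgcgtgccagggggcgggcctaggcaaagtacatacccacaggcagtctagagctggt

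The downstream Bcl6 window held 3 matches to TTCNNNGAA, the upstream window held 1 and the Fas window held 1. Over 300 bases from 250 before to 50 after the start, searched on both strands, 8.3% of 32851 RefSeq windows held a match. The narrower form TTCCTNGAA, which TTCNNNGAA contains, was found in the downstream Bcl6 window alone among the windows of these genes, and in 1.59% of all windows. S1pr2, Basp1, Neil1, Gcsam and Rgs13 had a window with neither. Of the 9 genes, 7 had a window, and Nuggc and Mybl1 were not scanned. A match is a description of the letters and not a bound site.

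Nuggc (ENSMUSG00000061356) encodes a nuclear GTPase of germinal centre B cells. Its values were 121, 64.3 and 72.4 normalised reads in the WT libraries and 38.3, 45.5 and 33.0 in the cKO libraries. No cKO value reached a WT value, and WT replicate 1 stood well above the other WT libraries. Nuggc had the lowest log2 difference of the 9 genes (-1.08 ± 0.26, 95% interval -1.65 to -0.51, limma adjusted p = 0.0264), from 85.8 ± 30.6 to 38.9 ± 6.26.

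Fas (ENSMUSG00000024778), the death receptor that germinal centre B cells carry, was read at 109.8, 69.6 and 73.4 in WT and 34.8, 52.1 and 42.3 in cKO. The groups were apart, again with WT replicate 1 on top. The level went from 84.2 ± 22.2 to 43.1 ± 8.70, a log2 difference of -0.94 ± 0.24 (95% interval -1.47 to -0.42, limma adjusted p = 0.033).

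**Figure D1:**
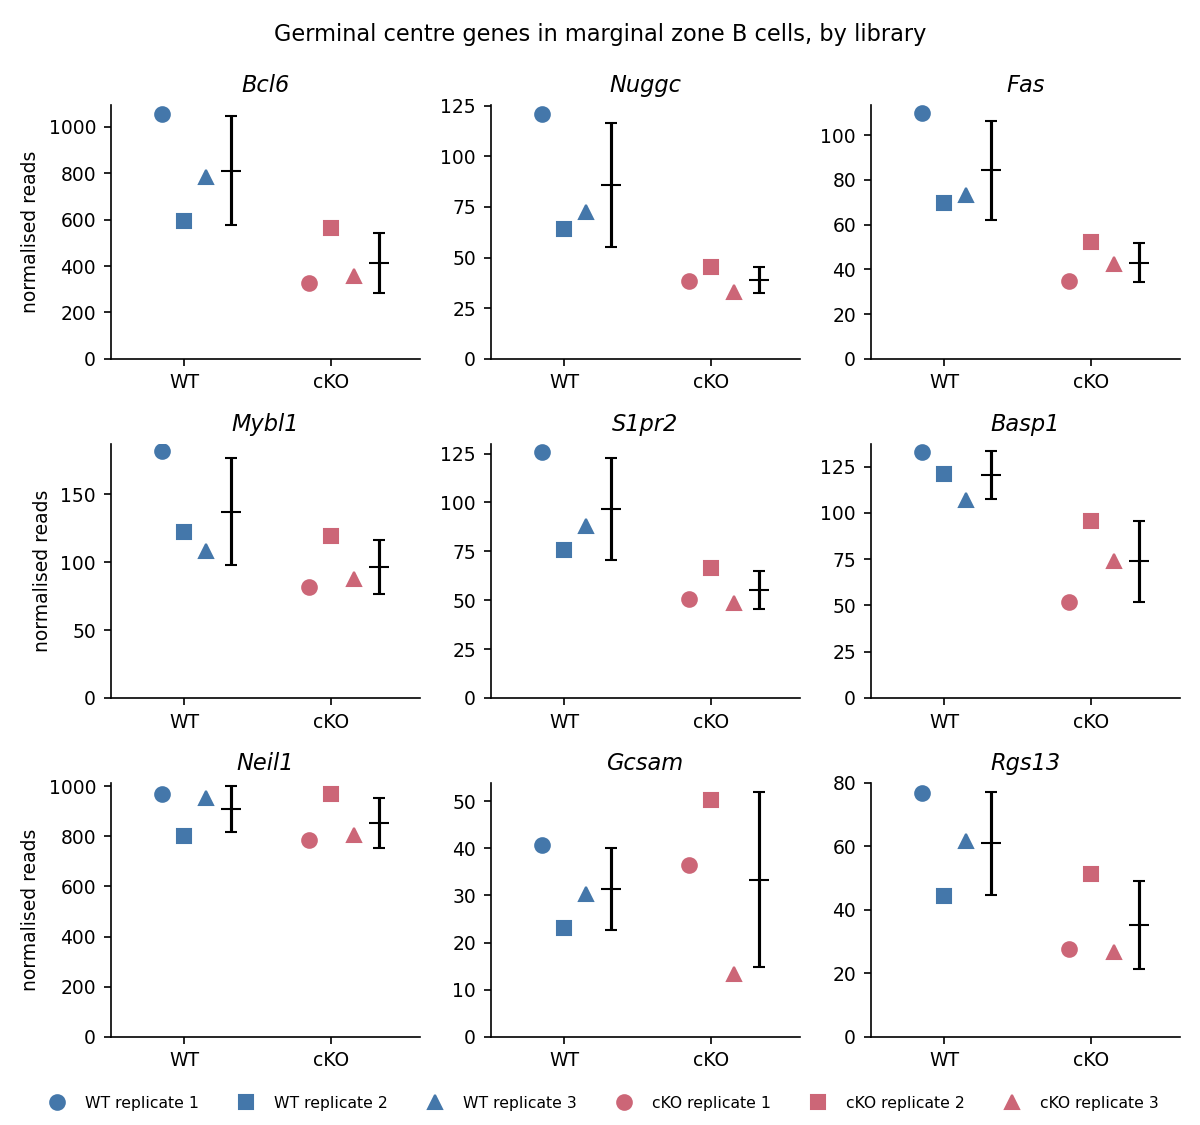
Normalised reads of each of the 9 genes (y axis, from 0) in the 3 WT and 3 cKO libraries (x axis), with the mean and SD of each group in black. The groups are apart for Bcl6, Nuggc, Fas, S1pr2 and Basp1 and overlap for Mybl1, Neil1, Gcsam and Rgs13.

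S1pr2 and Basp1 did not pass the threshold, although their groups did not overlap. S1pr2 (ENSMUSG00000043895), the receptor that confines B cells to the germinal centre, gave 126, 75.9 and 88.0 in WT and 50.8, 66.3 and 48.5 in cKO. Every cKO value lay below every WT value, and the log2 difference was -0.78 ± 0.23 (95% interval -1.28 to -0.28, limma adjusted p = 0.0524). Basp1 (ENSMUSG00000045763), a membrane-associated protein that also acts as a transcriptional corepressor, gave 133, 121 and 107 in WT and 51.7, 95.7 and 74.3 in cKO. Its WT libraries were close to each other while cKO replicate 2 came near them, with a log2 difference of -0.73 ± 0.22 (95% interval -1.22 to -0.25, limma adjusted p = 0.0585).

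Of the 9 genes, 5 had groups that did not overlap, each lower in cKO, where 15.6% of all genes tested were lower without overlap. For those 5 the exact two-sided permutation test gave p = 0.1, the smallest that 3 libraries against 3 allow. At an unadjusted limma p under 0.05 there were 7 of the 9, all lower in cKO, against 13.3% of all genes.

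Rgs13 (ENSMUSG00000051079), which shortens G protein signals from chemokine receptors, gave 76.9, 44.3 and 61.6 in WT and 27.6, 51.2 and 26.8 in cKO. Here cKO replicate 2 lay above WT replicate 2, so the groups overlapped. The log2 difference of -0.80 ± 0.30 had a 95% interval of -1.46 to -0.14 and did not pass (limma adjusted p = 0.117). Without cKO replicate 2 it was -1.10 and passed (adjusted p = 0.0327, in a range of 0.0327 to 0.342 over the alternatives).

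Mybl1 (ENSMUSG00000025912) encodes A-MYB, a transcription factor of dividing germinal centre cells. Its values of 182, 122 and 108 in WT and 82.0, 119 and 87.7 in cKO overlapped, with WT replicate 1 far above the rest. The log2 difference was -0.49 ± 0.22 (95% interval -0.97 to -0.01, limma adjusted p = 0.177).

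Neil1 (ENSMUSG00000032298), a DNA glycosylase that starts base excision repair, had the narrowest interval of the 9. It gave 969, 802 and 954 in WT and 786, 969 and 805 in cKO, which overlapped almost entirely. The log2 difference of -0.09 ± 0.10 had a 95% interval of -0.31 to 0.13, so a fall as large as that of Bcl6, Nuggc or Fas lay outside it (limma adjusted p = 0.601).

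Gcsam (ENSMUSG00000022659), an adaptor whose human counterpart restrains the motility of germinal centre B cells, was the least precise. It rested on 197 recovered reads in all, and its values of 40.6, 23.2 and 30.3 in WT lay within the cKO values of 36.5, 50.2 and 13.4. The log2 difference of -0.06 ± 0.43 had a 95% interval of -1.0 to 0.88 (limma adjusted p = 0.947), which holds both no difference and a fall the size of that of Fas. Its sign turned with edgeR (0.11) and DESeq2 (0.10), without WT replicate 1 (0.14) and without cKO replicate 3 (0.47).

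**Figure D2:**
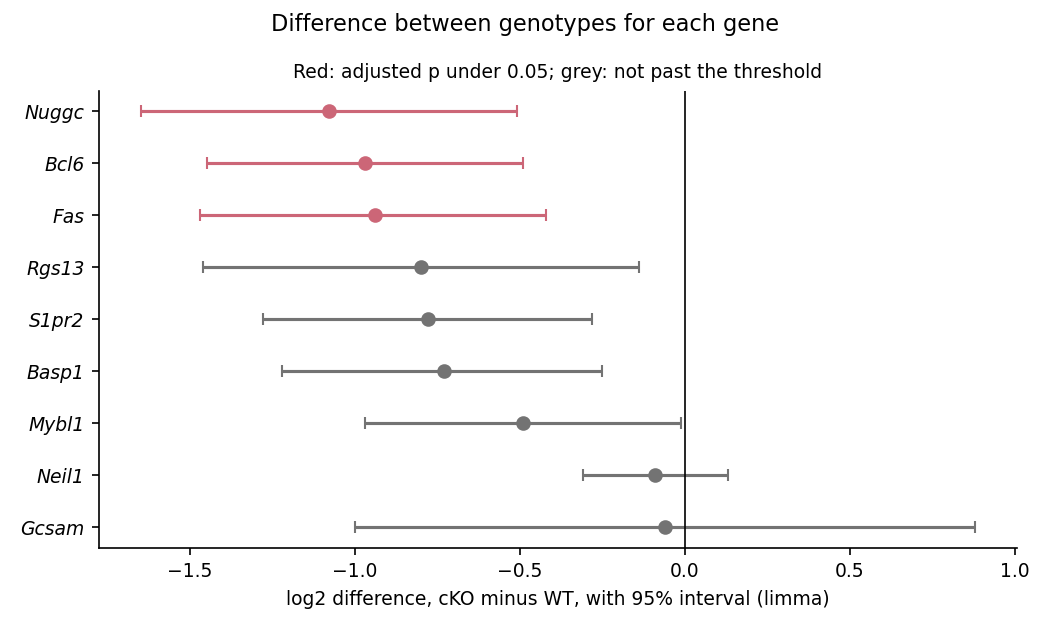
Log2 difference, cKO minus WT, for each of the 9 genes (x axis) with its 95% interval from limma; red points passed an adjusted p of 0.05 and grey points did not. Nuggc, Bcl6 and Fas are red, at -1.08, -0.97 and -0.94, and the intervals of Neil1 and Gcsam span 0.

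The 9 genes shared their highest library within each genotype. WT replicate 1 held the highest WT value for 9 of the 9 genes, and cKO replicate 2 held the highest cKO value for 9 of the 9. Over all genes tested, 12.1% had both of these libraries on top, a pair taken from the values of the 9 genes themselves. The lowest library was not shared. It was WT replicate 2 for 7 genes and WT replicate 3 for 2, and cKO replicate 1 for 5 and cKO replicate 3 for 4. In centred log2 values, the median over the 9 genes was 0.77, 0.08 and 0.29 in the WT libraries, whereas the cKO libraries gave -0.55, 0.05 and -0.56. WT replicate 2 and cKO replicate 2 were nearly level in that median.

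**Figure D3:**
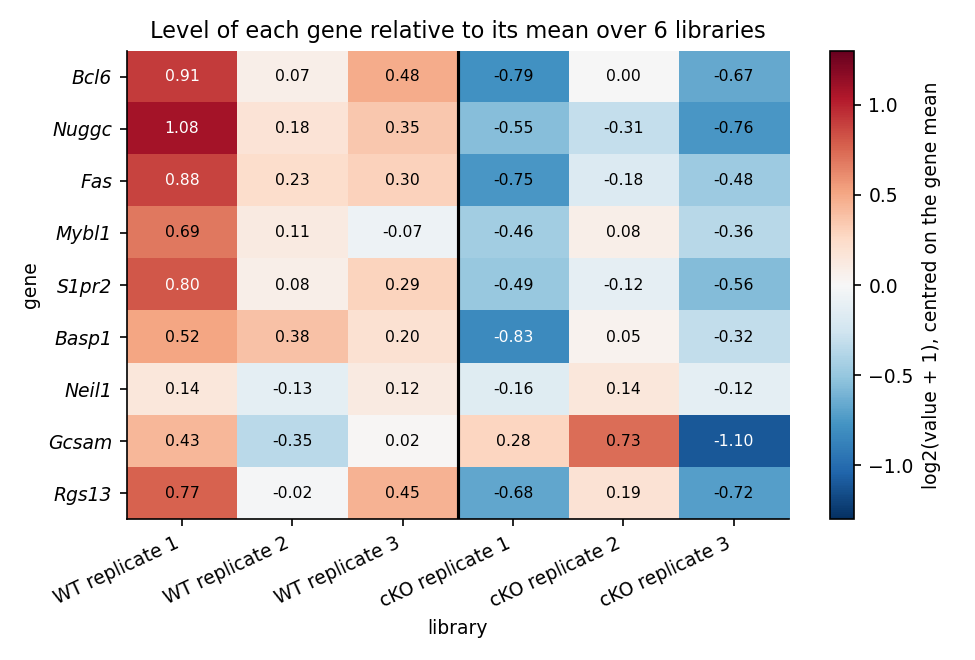
Log2(value + 1) of each of the 9 genes (rows) in each library (columns), centred on the mean of that gene over the 6 libraries; red is above and blue below that mean. WT replicate 1 is the reddest WT column, with 1.08 for Nuggc, and cKO replicate 2 is the cKO column nearest to WT.

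The highest cKO library was again replicate 2 for the sum of follicular B cell markers, those of the most common B cell of the spleen. Their summed level over 7 genes was 43371 to 47360 in WT, and 28001, 40976 and 29229 in cKO replicates 1, 2 and 3, and 5 of the 7 fell, beside 4.97% of all genes. That count was 2, 3 and 1 when WT replicate 1, 2 or 3 was left out and 3, 7 and 0 when cKO replicate 1, 2 or 3 was. Fcer2a, the low-affinity IgE receptor CD23, gave 3120, 7644 and 3723 in the cKO libraries against 5852 to 6788 in WT. The summed marginal zone markers ran the other way in cKO, at 158577, 127916 and 157382, against 123416 to 132505 in WT. For them cKO replicate 2 lay within the WT range. WT replicate 1, the highest WT library for the 9 genes, had the lowest follicular sum in WT. Whether follicular cells or their transcripts take part in the differences of the 9 genes was not tested.

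Markers of other cell types were summed in the same way. The summed T cell markers ran from 627 to 723 in WT and 321 to 462 in cKO, over 3 of 8 genes. Most of that sum was Lck, a kinase gene, which fell from 631 ± 49.2 to 369 ± 71.5 (log2 difference -0.79 ± 0.13, limma adjusted p = 0.00534). Cd4 went from 23.0 ± 5.6 to 13.3 ± 0.917 (-0.72 ± 0.31) and Cd8a from 18.2 ± 4.92 to 7.86 ± 1.82 (-1.11 ± 0.36). Their groups did not overlap either, but neither gene passed (limma adjusted p = 0.16 and 0.0791). The CD3 genes and all 5 markers of follicular helper T cells were not analysed here. Sums of the 8 macrophage and monocyte markers overlapped (1539.5 to 2394 and 1357 to 2411). Dendritic (311 to 355 and 300.4 to 409), neutrophil (17.6 to 97.0 and 10.3 to 80.2) and natural killer markers (22.0 to 31.3 and 18.0 to 28.9) overlapped as well, though Zbtb46 of the dendritic list rose from 49.4 ± 13.2 to 94.4 ± 7.82 (0.95 ± 0.23, limma adjusted p = 0.0252; lost without WT replicate 3, at 0.0797, and without cKO replicate 1 or 3). The erythroid sum was widest, at 614 to 10021 in WT, where replicate 2 was on top. Plasma cell markers summed to 10170.0 to 14650.5 in WT and 8133 to 9532 in cKO. Most of that sum was Irf4, at 9404 ± 2381 and 5663 ± 892, a gene that also stands in lists below. Irf4 and Slamf7 of the 6 fell, beside 4.97% of all genes. The other 4 did not pass, and their groups overlapped. Follicular dendritic and stromal markers, over 3 of 7 genes, summed to 5421 to 5915 in WT and 4082 to 4449 in cKO without overlap. Nearly all of that sum was Fcgr2b, an inhibitory Fc receptor that B cells carry too, which fell from 5472 ± 269.8 to 4184 ± 226 (-0.39 ± 0.06, limma adjusted p = 0.00428). None of 5 general B cell markers passed. The part of these cells in the 9 genes' differences was not tested.

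Cell division genes had differences of the opposite sign. None of 8 passed, and each had a log2 difference above 0, with a median of 0.33. Their sum was 4322 to 5012 in WT, and 4377, 6553 and 6909 in cKO replicates 1, 2 and 3. Thus cKO replicate 1 lay within the WT range. Mki67, the proliferation antigen, gave 2374, 2084 and 2357 in WT and 2015, 3135 and 3158 in cKO. So cKO replicate 3 was high for Mki67 and low for Bcl6.

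Other germinal centre markers were divided. Of 10 tested, 3 fell and none rose, against 4.97% and 5.08% of all genes. Lmo2, a LIM-domain regulator, fell from 2671 ± 138 to 1755 ± 283 (log2 difference -0.62 ± 0.10, limma adjusted p = 0.00442). Pdcd1lg2, the checkpoint ligand PD-L2, fell from 307 ± 42.9 to 187 ± 17.3 (-0.71 ± 0.13). Rassf6, a Ras-association family gene, fell from 56.2 ± 13.9 to 20.1 ± 10.6 (-1.53 ± 0.35), but lost its call without WT replicate 1 (adjusted p = 0.104), WT replicate 3, cKO replicate 1 or cKO replicate 3.

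Among the markers that did not pass was Bach2, a repressor of plasma cell fate, at 2815 ± 376 and 1876 ± 682 (-0.63 ± 0.19, limma adjusted p = 0.0584). Bach2 had its cKO values at 1420.0, 2660.0 and 1549, so cKO replicate 2 lay among the WT libraries. Ezh2, the histone methyltransferase, gave 0.10 and Hhex 0.02.

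The genes named as repression targets of BCL6 did not move one way. Of 18 tested, 2 rose and 4 fell (5.08% and 4.97% of all genes), with a median log2 difference of -0.02. Cd80, a costimulatory ligand, rose from 67.0 ± 2.5 to 122 ± 34.8 (log2 difference 0.82 ± 0.20, limma adjusted p = 0.0305), while Id2, whose product blocks E proteins, rose by 0.63 ± 0.13. Cd69, which holds lymphocytes in tissue, fell from 6524 ± 563 to 3794 ± 855 (-0.80 ± 0.13, adjusted p = 0.00462), and Irf4 (-0.71), Myc (-0.45) and Gpr183, a receptor for oxysterols (-0.40), fell as well. Prdm1, the plasma cell regulator BLIMP1, gave 126 ± 16.2 and 137 ± 17.6 (0.11 ± 0.16, adjusted p = 0.699).

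**Figure D4:**
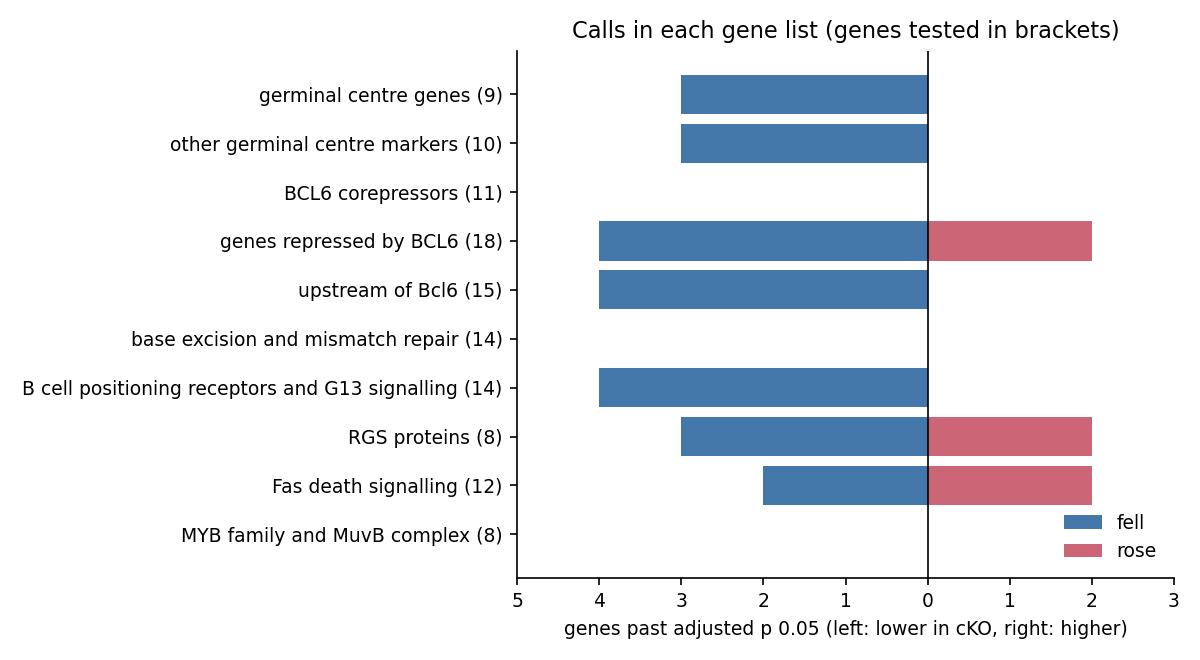
Number of genes past an adjusted p of 0.05 in each gene list (x axis, lower in cKO to the left and higher to the right), with the number of genes tested in brackets. Calls among the 9 germinal centre genes all lie to the left, targets of BCL6 lie on both sides, and 3 lists have none.

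Upstream of Bcl6, 4 of 15 genes fell and none rose, where 4.97% of all genes fell and 5.08% rose. These were Irf4, a factor that represses Bcl6 when abundant (9404 ± 2381 to 5663 ± 892), Foxo1, a factor of the germinal centre dark zone (-0.32), and the cytokine receptor genes Il21r (-0.42) and Il4ra (-0.44), whose ligands induce Bcl6 through STAT factors. Irf4 lost its call in 4 of 15 alternatives, Foxo1 in 2, Il21r in 5 and Il4ra in 6. Stat3 (-0.10), Irf8 (-0.05) and Mef2c (-0.10) did not pass. None of the 11 corepressor genes that act with BCL6 passed. Ncor1, at 8555 ± 112 and 8769 ± 325, was the most abundant of them in deposited reads, and Bcor came nearest the threshold (-0.18 ± 0.05, adjusted p = 0.0564).

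Partners of the remaining genes were examined in the same way. Of 14 positioning receptors and Gα13 pathway genes, the group in which S1PR2 acts, 4 fell and none rose, beside 4.97% and 5.08% of all genes. They were Cxcr4, a receptor of the dark zone (6674 ± 681 to 4686 ± 954, log2 difference -0.52 ± 0.12), Ccr7 (-0.55), Gpr183 and Gna13 itself (-0.25 ± 0.07, limma adjusted p = 0.0456). Of 15 alternatives, Cxcr4 lost its call in 6, Ccr7 in 8, Gpr183 in 2 and Gna13 in 6. Ccr7 and Gna13 did not pass with edgeR, nor Ccr7 and Cxcr4 with DESeq2. Of the other S1P receptors tested, S1pr1, the receptor for egress, gave 0.08, S1pr3 gave -0.06 and S1pr4 gave -0.18 ± 0.12, none of them past the threshold, beside the -0.78 of S1pr2. The difference between these receptors was not tested.

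Of 8 RGS genes beside Rgs13, 3 fell and 2 rose, against the same 4.97% and 5.08% of all genes. Rgs18 fell from 48.0 ± 7.0 to 17.8 ± 7.11 (log2 difference -1.44 ± 0.31), Rgs1 gave -0.70 and Rgs2 -0.57, while Rgs10 rose from 669 ± 88.1 to 1214 ± 142 (0.86 ± 0.11, limma adjusted p = 0.00118) and Rgs12 rose by 0.86 ± 0.16. In Fas signalling, 12 genes were tested with Fas among them. Cflar, an inhibitor of the caspase that FAS activates, fell (-0.25 ± 0.06). Bid, which carries that signal to mitochondria, rose from 2490.4 ± 107 to 3397 ± 276 (0.45 ± 0.07, limma adjusted p = 0.00398). Dffa rose too (0.21, limma adjusted p = 0.0441), but lost its call in 8 of 15 alternatives, where Cflar lost it in 4 and Bid in 0. Fadd, the adaptor of the receptor, gave -0.03 and did not pass.

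None of 14 genes of base excision and mismatch repair passed, in which NEIL1 acts. Ung, the uracil glycosylase, came nearest at 256 ± 28.1 and 189.7 ± 16.4 (log2 difference -0.43 ± 0.12, limma adjusted p = 0.051). None of 8 MYB family and MuvB genes passed either, with Mybl2 at 0.37 ± 0.12 (adjusted p = 0.0717) where its relative Mybl1 had -0.49. Across the lists beside the 9 genes, 106 distinct genes were tested, of which 17 fell and 6 rose, beside 4.97% and 5.08% of all genes. Of those 23, Bid, Cd69, Lmo2, Pdcd1lg2 and Rgs10 passed under every alternative. The others lost the call under at least 1, with 16 and 17 losing it when WT replicate 1 or 3 was left out and 10 and 13 when cKO replicate 1 or 3 was.

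The genes closest to Bcl6 over the 6 libraries were sought by the mean absolute difference of centred log2 values, over 10200 genes whose mean reached 50. Each gene was centred on its mean over all 6 libraries, so a gene with a like difference between genotypes comes near Bcl6 by design. Among the 5 nearest were Plk2, a polo-like kinase gene (0.122), Fas (0.127), Itih5, an extracellular matrix protein gene (0.127) and S1pr2 (0.135). Plk2 gave 826, 541 and 614 in WT and 312, 435 and 267 in cKO. Nuggc ranked 11, Basp1 51 and Mybl1 70 in this order, while Neil1 ranked 1964. Rgs13, whose mean of 48.1 was under the minimum, was nearer than any of these (0.102), while Gcsam, with a mean of 32.4, was far from Bcl6 (0.601).

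The calls for Bcl6, Nuggc and Fas rested on several libraries together. None of the 9 genes passed without WT replicate 1, WT replicate 3, cKO replicate 1 or cKO replicate 3, and 6 passed without cKO replicate 2. Without WT replicate 1 the log2 differences of Bcl6, Nuggc and Fas were -0.76, -0.80 and -0.74 (limma adjusted p = 0.0899, 0.104 and 0.136). Over all alternatives their adjusted p ran from 0.00211 to 0.138 for Bcl6, 0.00396 to 0.104 for Nuggc and 0.0119 to 0.136 for Fas. The count over all genes fell as well, from 1494 to 510 and 497 when WT replicate 1 or 3 was left out, and to 927 and 531 when cKO replicate 1 or 3 was. Without cKO replicate 2 that count rose to 1730, the highest of these fits. Leaving out 1 library cannot turn the sign of a gene whose groups do not overlap, so the kept direction is no sign of stability.

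**Figure D5:**
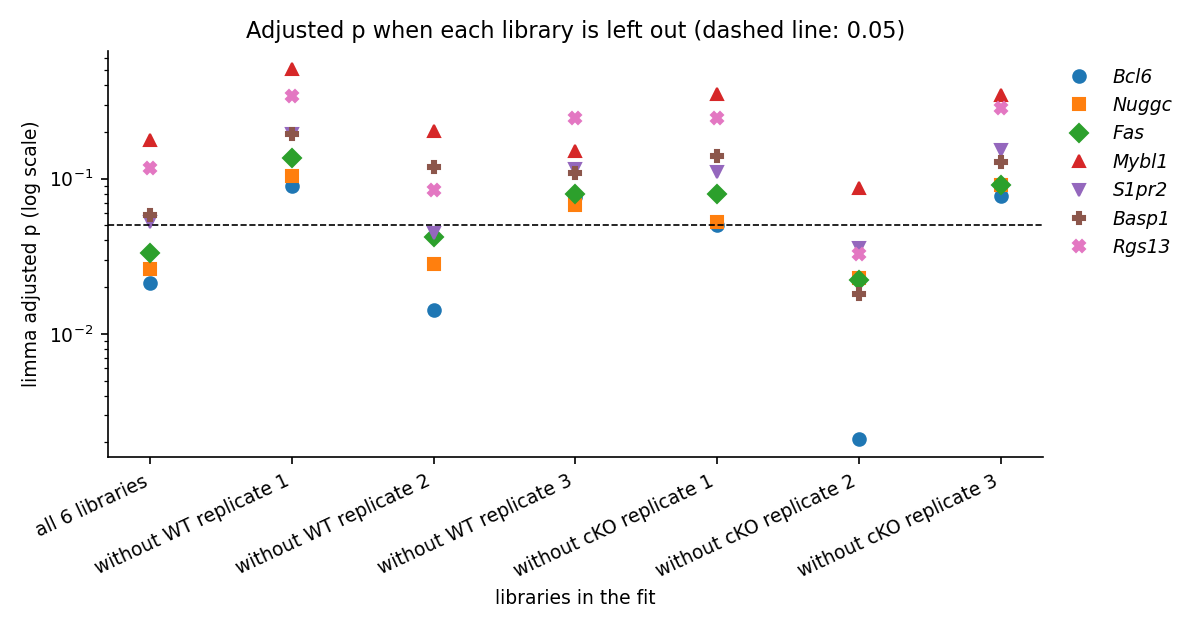
Limma adjusted p (y axis, log scale) for 7 of the 9 genes with all 6 libraries and with each library left out (x axis); the dashed line is 0.05. With cKO replicate 2 left out 6 genes lie under the line, and with WT replicate 1 left out none does.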

How the data were processed

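The authors deposited a table of normalised reads, a signal that is each read count divided by 1 factor per library, as the values show: 100.0% of values in each library were whole multiples of 1 read within 0.02. Build mm9 and the tools STAR 2.5.2b, Trimmomatic 0.36 and bcl2fastq 2.17 stand in the submitters' processing notes. Counting, annotation, strand setting and normalisation: not given in the sources used here. Symbols and exon lengths came from GENCODE M21, which named 14808 of 14864 genes. No other gene of the table overlaps the 9 genes in that annotation, but among the genes named beside them Bid, Gpr183, Lmo2, Pdcd1lg2, Gna13, Foxo1, Stat3, Rgs10, Bach2, Slamf7, Fcgr2b and Ncor1 overlap others. Reads of genes on opposite strands cannot be told apart without strand. For Bid, Foxo1, Rgs10 and Bach2 an overlapping gene lies on the same strand, where strand does not separate the reads.

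The test was limma 3.58.1 in R 4.3.3 (eBayes with a trend, two-sided) on log2(value + 1), which understates the change of low genes, for the 14855 genes with a mean of at least 10, with Benjamini-Hochberg adjustment over all of them and a threshold of 0.05. A log2 difference is cKO minus WT with its standard error; levels are mean ± SD over 3 libraries. "Rose" and "fell" mean past that threshold. edgeR 4.0.16 and DESeq2 1.42.0 on recovered reads were alternatives, each tested on simulated data first. That simulation gave all genes the same spread beyond counting noise, and so did not cover genes that vary more. The 9 genes, the lists and the naming rule (the 9 genes, list genes past the threshold or most abundant, and the nearest to Bcl6) were chosen with earlier results of these data known. Bach2, Ezh2, Hhex, Prdm1, Fcer2a, Mki67, Bcor, Ung, Mybl2, Mef2c, Fadd, S1pr3, S1pr4, Cd4 and Csnk2a1 were named after their values were seen. Promoter letters are from RefSeq, build GRCm38.p6. Some genes of the lists are not reported here by name.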

Additional observations from a re-analysis of the deposited data

How the results depend on the processing

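Of the 9 germinal centre genes, 3 passed with all 6 libraries, 5 with DESeq2 (S1pr2 and Basp1 in addition), and 0 to 6 when each library was left out. Over all genes, limma gave 1494 with all 6 libraries, DESeq2 gave 1630, and 497 to 1730 passed when each library was left out. Of the 106 pathway genes, 6 to 27 passed when each library was left out. At an unadjusted p under 0.05 in all 6 libraries, limma gave 7 of the 9. Bcl6 missed the threshold under robust moderation (0.138) and, narrowly, without cKO replicate 1 (0.05004), and Fas under the replicate block (0.0561), where 2 of the 9 passed. Under robust moderation 4 of the 9 passed, with S1pr2 (limma adjusted p = 0.0389) and Basp1 (0.0425) among them, beside 1615 of all genes. Gcsam turned to 0.11 with edgeR, 0.10 with DESeq2, 0.14 without WT replicate 1 and 0.47 without cKO replicate 3 (lowest -0.44, without cKO replicate 2). Other pseudocounts, filters and TMM scaling kept the count at 3. Gcsam and Rgs13 have a mean under 50 and so no value at that filter. The labels do not say that equal replicate numbers pair libraries, and their deviations from the group means correlated at -0.07, -0.02 and 0.15 over genes, so the numbers are taken as names only; with them as a replicate block 1551 genes passed over all. Gcsam had the fewest reads of the 9 genes, at 13 to 53 a library.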
